A study of Mus musculus with 2 samples.

Results

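Elastic fibres and their microfibril scaffold were described here through 10 genes, Eln, Fbn1, Fbln1, Fbln2, Fbln5, Mfap4, Mfap5, Emilin1, Efemp1 and Efemp2, chosen by symbol. All 10 of them were among the 33696 genes listed in each library. The tissue was ulcerated lesional mouse skin from a model of ulcerative dermatitis (labelled UD), captured with a single-cell 5′ kit. One library came from a sample labelled whole-body Has2 overexpression, Has2 being an enzyme that makes hyaluronan, and the other from a sample labelled wild type. Both labels give tape stripping of the skin on 15 consecutive days, at 40 to 50 strips a day, as a stand-in for scratching. The treatment label starts in mid-sentence, so an earlier step may not be recorded in it. The promoter that drives Has2, the strain, the age and the number of animals behind each library are not given in the sources used here.

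Elastic fibres give skin its recoil. Elastin, the product of Eln, is secreted as a soluble monomer, is placed on bundles of fibrillin microfibrils and is crosslinked by lysyl oxidases. Fibulins, EMILIN-1 and microfibril-associated proteins line the fibre or guide the placing and crosslinking of elastin, and in dermis fibroblasts are the main source.

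With 1 library per genotype no difference has a replicate check, so no p-value is given, and genotype, animal and library preparation cannot be told apart. Levels are counts of unique molecular identifiers (UMIs, 1 per captured transcript) per 1000000 UMIs of the same cells (CPM). The 5′ chemistry counts a transcript once whatever its length. All intervals are 95% intervals and cover counting error only. The Has2-labelled library held 14622 barcodes and 134917708 UMIs, and 16999 barcodes with 143875454 UMIs came from wild type. They shared 79 barcodes. After filtering, 14415 and 16837 cells were kept, of which 88.5% and 84.5% passed a gate for 1 cell type. Has2 itself did not settle the labels. It stood at 85.8 CPM over kept cells of the Has2-labelled library and 71.5 CPM over those of the wild-type library, but at 145 CPM in fibroblast-gated cells of the Has2-labelled library, against 179 CPM in those of wild type. Pericyte- or smooth muscle-gated cells had 92.6 CPM in the Has2-labelled library and 106 CPM in wild type. Other classes had the opposite order. Schwann-gated cells had 119 and 26.6 CPM, endothelial-gated cells 9.90 and 3.26 CPM, and keratinocyte-gated cells 320 and 190 CPM, with 19 such cells in wild type. Macrophage- or monocyte-gated cells had 1.90 and 0.688 CPM and neutrophil-gated cells 3.64 and 1.46 CPM. The Has2-labelled library is therefore named by its label throughout.

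Fibroblast-gated cells held most of the members' transcripts. They numbered 2522 in the Has2-labelled library and 2304 in the wild-type library, with median depths of 24990 and 20081.5 UMIs. Their share of all member UMIs was 96.3% in the Has2-labelled library and 93.0% in wild type. All 8 fibroblast markers were detected in the class in each library, at a summed 56130 CPM in the Has2-labelled library and 21346 CPM in wild type. Col1a1, a collagen I chain on that list, made up part of the gap, with 16109 CPM in the Has2-labelled library and 2786 CPM in wild type, whereas Dcn, the proteoglycan decorin, stood at 5747 and 6957 CPM in the same order. The 10 members summed to 5584 CPM in fibroblast-gated cells of the Has2-labelled library and 3249 CPM in those of wild type. Neutrophils, which are not known to make these proteins, gave the background of free RNA, with 27.6 CPM in the Has2-labelled library and 24.3 CPM in wild type. Immediate early genes, which handling can raise, summed to 4827 CPM in fibroblast-gated cells of the Has2-labelled library and 3989 CPM in those of wild type, and their part in the member levels was not tested.

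**Figure D1:**
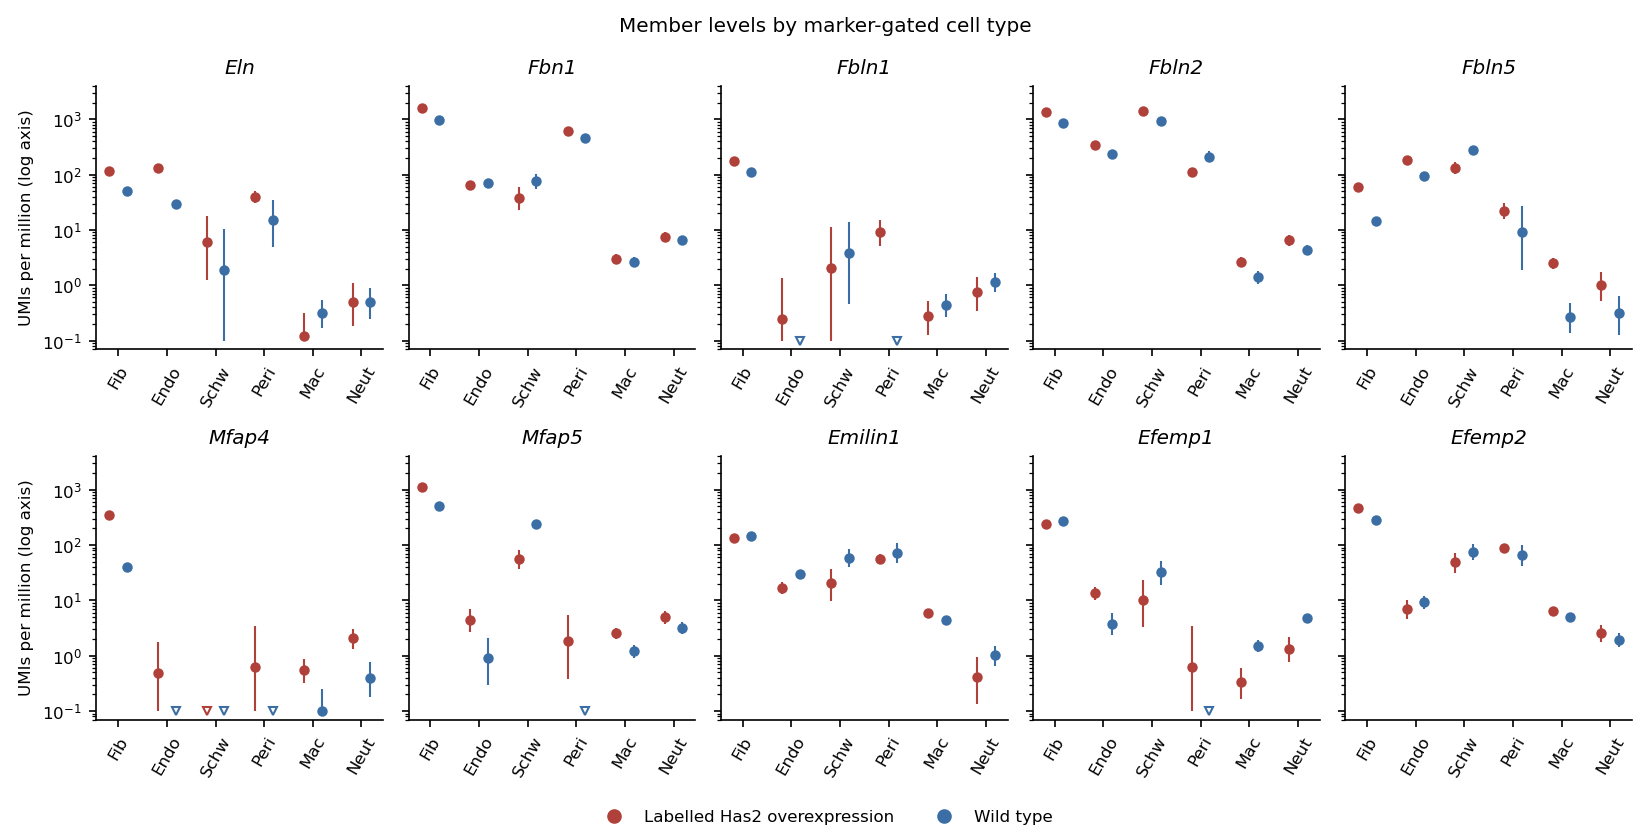
Level of each member in CPM (log axis) in fibroblast (Fib), endothelial (Endo), Schwann (Schw), pericyte or smooth muscle (Peri), macrophage or monocyte (Mac) and neutrophil (Neut) gated cells of the library labelled Has2 overexpression and of the wild-type library. Bars are exact Poisson 95% intervals cut at 0.1 and open triangles mark 0 UMIs. Fbn1, Fbln1, Mfap4, Mfap5, Emilin1, Efemp1 and Efemp2 are highest in fibroblast-gated cells of each library among the classes drawn, and Fbln5 is higher in endothelial- and Schwann-gated cells.

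Promoters are shown for members that differed in how they behaved between the libraries: Fbln5, among the largest gaps, Fbn1, of middle size, and Efemp1, which was not higher in fibroblast-gated cells. Each is the 250 bases before a RefSeq transcription start in build GRCm38.p6, read 5′ to 3′ on the gene's strand. Fbln5 is at chr12:101819120-101819369 on the minus strand, Fbn1 at chr2:125506439-125506688 on the minus strand and Efemp1 at chr11:28852955-28853204 on the plus strand. RefSeq lists 2 starts for Fbln5, and the window of the other one, chr12:101818485-101818734 on the minus strand, holds no GC box. Capitals mark a GC box (GGGCGG on either strand) in all 3 printed sequences and, in Efemp1, also an AP-1 motif (TGANTCA).
Fbln5: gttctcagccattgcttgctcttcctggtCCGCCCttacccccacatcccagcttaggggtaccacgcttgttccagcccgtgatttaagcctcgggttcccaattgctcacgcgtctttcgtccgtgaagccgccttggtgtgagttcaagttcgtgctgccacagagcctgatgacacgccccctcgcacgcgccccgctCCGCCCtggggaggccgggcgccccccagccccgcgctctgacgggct
Fbn1: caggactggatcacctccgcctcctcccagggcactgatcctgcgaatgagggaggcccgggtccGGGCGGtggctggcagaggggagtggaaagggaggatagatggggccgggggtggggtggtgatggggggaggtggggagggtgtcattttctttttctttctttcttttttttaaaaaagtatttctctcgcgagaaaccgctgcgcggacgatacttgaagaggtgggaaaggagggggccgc
Efemp1: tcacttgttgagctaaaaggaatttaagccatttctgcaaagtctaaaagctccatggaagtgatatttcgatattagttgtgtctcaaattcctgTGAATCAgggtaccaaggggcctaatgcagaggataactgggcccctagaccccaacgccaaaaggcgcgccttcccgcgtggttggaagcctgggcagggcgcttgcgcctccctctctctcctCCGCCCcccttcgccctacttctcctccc
RefSeq promoters were at hand for 7 of the 10 members. Of all 32851 promoters of this length, 32.7% hold the GC box and 6.75% the AP-1 motif. Other motifs searched on both strands were a TEAD motif (CATTCC, in 12.6% of promoters), a TATA box (TATAAA, 12.4%), a SMAD-type CAGA box (AGCCAGACA, 0.301%) and a CArG box (1.47%), and none of these letters stood in the 3 windows. No promoter element was measured here, and a match is only a match of letters.

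Transcripts for the core of the fibre were higher in fibroblast-gated cells of the Has2-labelled library. Only transcripts were counted, and neither proteins nor fibres were measured. Eln (ENSMUSG00000029675), elastin itself, had 7478 UMIs or 115 CPM there, against 2678 UMIs or 50.5 CPM in wild type, a ratio of 2.28 (2.18 to 2.38). Fbn1 (ENSMUSG00000027204), fibrillin-1, the main strand of the microfibril, stood at 1580 CPM in the Has2-labelled library and 989 CPM in wild type, a ratio of 1.60 (1.58 to 1.61). Both genes were therefore higher in the Has2-labelled library, Eln by the larger factor.

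Transcripts of both genes for microfibril-associated proteins were higher in the Has2-labelled library. Mfap4 (ENSMUSG00000042436), a fibrinogen-domain protein that binds elastin and fibrillin-1, stood at 346 CPM in fibroblast-gated cells of the Has2-labelled library and 39.5 CPM in those of wild type. Its ratio of 8.75 (8.36 to 9.15) was the largest of the 10 members. Mfap5 (ENSMUSG00000030116), a small glycoprotein of the microfibril also called MAGP-2, stood at 1101 CPM in the Has2-labelled library and 499 CPM in wild type, a ratio of 2.20 (2.17 to 2.24).

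Among the fibulins the gaps ranged widely. Fbln5 (ENSMUSG00000021186), which ties elastin to microfibrils and to integrins and is needed for normal fibres in mouse skin, stood at 60.7 CPM in the Has2-labelled library and 14.3 CPM in wild type. Its ratio was 4.25 (3.93 to 4.59). Efemp2 (ENSMUSG00000024909), fibulin-4, which brings lysyl oxidase to elastin, stood at 469 CPM in the Has2-labelled library and 283 CPM in wild type, a ratio of 1.66 (1.63 to 1.69). Fbln2 (ENSMUSG00000064080), a fibulin that binds fibrillin-1 and tropoelastin, stood at 1361 CPM in the Has2-labelled library and 841 CPM in wild type, a ratio of 1.62 (1.60 to 1.64). Fbln1 (ENSMUSG00000006369), the founding fibulin, stood at 173 CPM in the Has2-labelled library and 113 CPM in wild type, a ratio of 1.53 (1.48 to 1.58). These 4 fibulin genes were all higher in the Has2-labelled library. Efemp1 (ENSMUSG00000020467), fibulin-3, went the other way, with 243 CPM in the Has2-labelled library and 273 CPM in wild type, a ratio of 0.891 (0.871 to 0.911).

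Emilin1 (ENSMUSG00000029163), which sits at the border of elastin and microfibrils, stood close together in the 2 libraries. It had 137 CPM in the Has2-labelled library and 146 CPM in wild type, a ratio of 0.937 (0.909 to 0.966). Its direction turned with the scaling of cells: averaged over cells rather than summed, the ratio was 1.05.

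Altogether 4 of the 10 members were at least 2-fold higher in the Has2-labelled library, where 10.3% of 16860 measured genes were. None was at least 2-fold lower, as 2.4% of genes were, and 8 of 10 were higher by any amount, as 49.9% of genes were. The members' median log2 ratio was 0.71, against -0.00 for all measured genes.

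**Figure D2:**
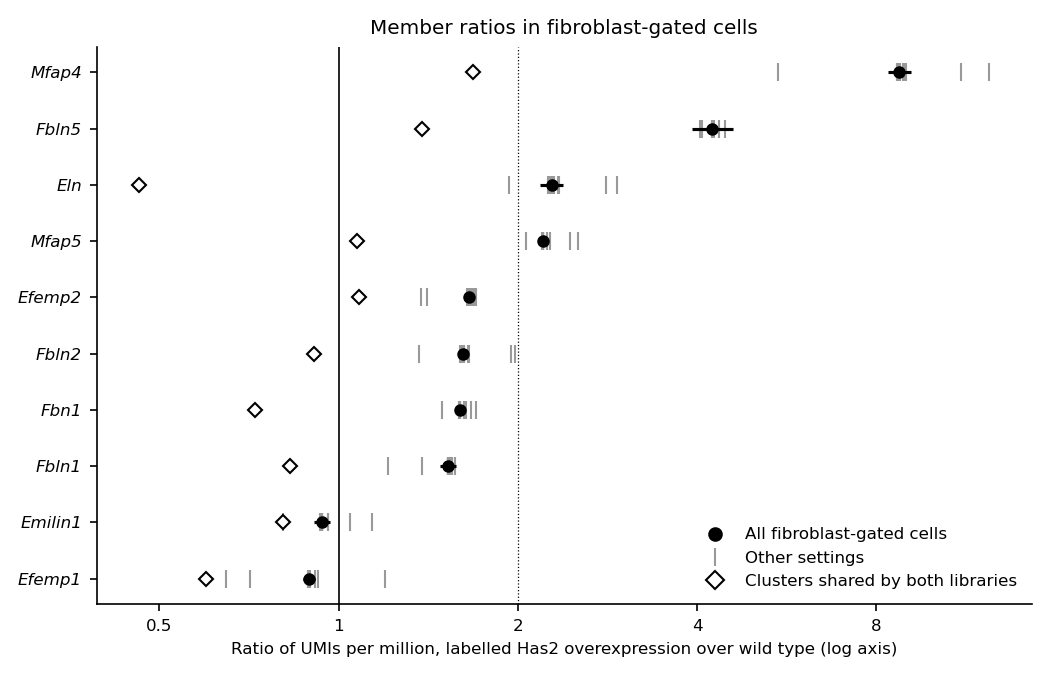
Ratio of CPM in fibroblast-gated cells, library labelled Has2 overexpression over wild type (log axis), for each member. Filled points are all gated cells with 95% counting intervals, ticks are the other settings and open diamonds use only cells of the 3 clusters that both libraries filled. Mfap4 lies at 8.75 over all cells and 1.68 within shared clusters, and Eln at 2.28 and 0.463.

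Except for Emilin1, the gaps kept their direction in how many cells carried a transcript. After thinning every cell to 1000 UMIs, which left out 128 cells of the Has2-labelled library and 245 of wild type, Mfap4 was found in 20.3% of fibroblast-gated cells of the Has2-labelled library (18.7 to 22.0%) and in 2.28% of those of wild type (1.68 to 3.02%). Fbln5 was found in 6.47% of the cells in the Has2-labelled library and 1.65% in wild type, and Eln in 9.65% and 4.32% in the same order. Unthinned, the Mfap4 shares were 53.6% in the Has2-labelled library and 18.3% in wild type. In thinned neutrophil-gated cells, with median depths of 2078 and 3093 UMIs before thinning, Mfap4 was found in 0.197% of cells of the Has2-labelled library and 0.0314% of those of wild type, so the fibroblast shares lay far above the background. The share was higher in the Has2-labelled library for 9 of the 10 members, Efemp1 being the exception with 21.3% there and 28.8% in wild type. No such count was made over all genes, so it has no background. Emilin1 was thus higher by thinned share though not by CPM. Unthinned, in fibroblast-gated cells with at least 5000 UMIs, it was found in 71.0% of the Has2-labelled library and 73.8% of wild type.

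Per cell, the members differed in spread. Among fibroblast-gated cells with at least 5000 UMIs, 2250 in the Has2-labelled library and 1640 in wild type, the median Fbn1 level was 12.6 UMIs per 10000 in the Has2-labelled library and 8.71 in wild type. For Mfap5 the medians were 8.99 and 3.65 in the same order. Mfap4 was uneven: its median was 0.599 UMIs per 10000 in the Has2-labelled library with a 90th percentile of 10.5, and in wild type the median was 0 with a 90th percentile of 1.07. Eln had a 90th percentile of 3.25 in the Has2-labelled library and 1.5 in wild type. Eln and Mfap4 were thus carried by part of the cells, while Fbn1 was found in 99.7% of these deeper cells of the Has2-labelled library.

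**Figure D3:**
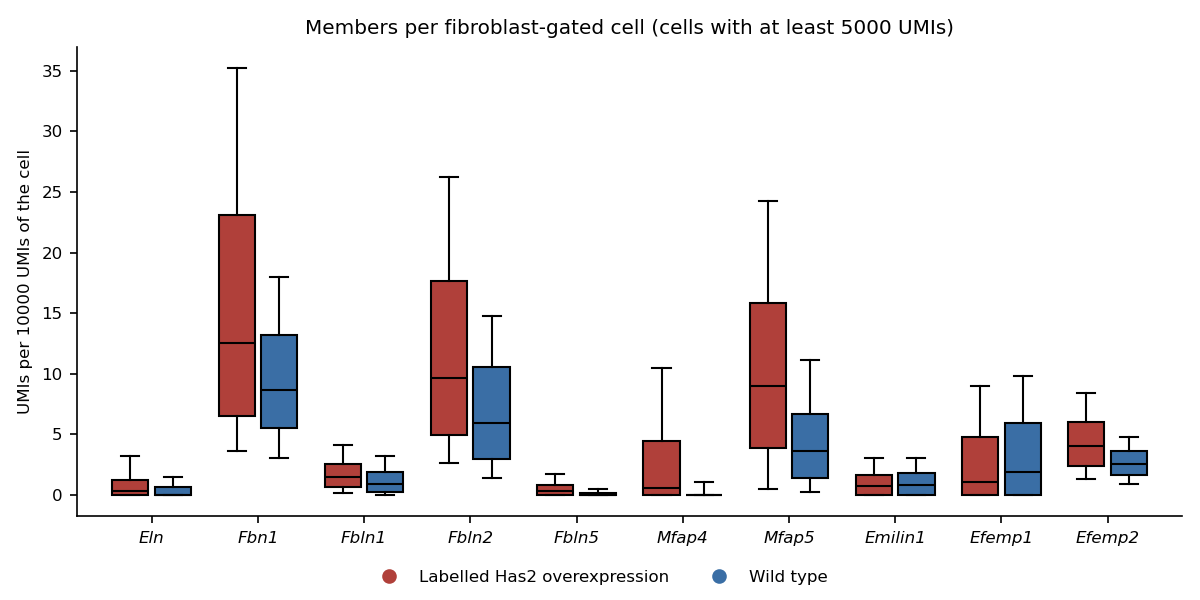
UMIs of each member per 10000 UMIs of the cell, in fibroblast-gated cells with at least 5000 UMIs of the library labelled Has2 overexpression (2250 cells) and of wild type (1640 cells). Boxes are quartiles with the median as a line and whiskers run from the 10th to the 90th percentile. Cells are not replicates, and the medians for Fbn1 are 12.6 and 8.71.

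The fibroblast-gated cells of the 2 libraries lay largely in different clusters. When all kept cells were clustered without the members, 71.5% of fibroblast-gated cells of the Has2-labelled library and 1.35% of those of wild type lay in clusters 13 and 14. Clusters 12, 19 and 10 held 26.9% of fibroblast-gated cells of the Has2-labelled library and 98.0% of those of wild type. With 1 library per genotype, clusters filled mostly by 1 library may reflect that library rather than a cell type. Cluster 13 was led by collagen I and III genes and Sparc, and cluster 14 by the same with Postn, Tnc and Bgn, genes of wound matrix. Cluster 12 was led by Prg4, Ptx3 and Dcn, and cluster 19 by Tnc, Cxcl14 and Abi3bp. Prg4 and Ptx3 were also among the leading genes of clusters 13, 19 and 10. The members Fbn1 and Mfap5 were among the leading genes of cluster 13, and Fbln2 among those of cluster 14. Cluster 10 held shallow cells, with a median of 967.5 UMIs.

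Clusters 13 and 14 of the Has2-labelled library differed in the levels of members. Eln stood at 175 CPM in cluster 13 of the Has2-labelled library and 79.7 CPM in cluster 14, and Fbn1 at 2290 and 908 CPM. Mfap4 had the opposite order, with 252 CPM in cluster 13 and 838 CPM in cluster 14, and so did Fbln5 with 46.7 and 133 CPM and Fbln2 with 1221 and 2275 CPM. Efemp1 stood at 382 CPM in cluster 13 and 26.8 CPM in cluster 14. Of these clusters, transcripts of Eln, Fbn1 and Efemp1 were thus higher in cluster 13, and those of Mfap4, Fbln5 and Fbln2 in cluster 14. Efemp1 was higher still in cluster 10, with 484 CPM in the Has2-labelled library and 809 CPM in wild type, and Emilin1 in cluster 19, with 163 and 193 CPM, lay above its 148 CPM in cluster 13 and 133 CPM in cluster 14 of the Has2-labelled library.

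Pooled over the clusters that both libraries filled, the gaps of the 8 higher members shrank or turned round. In clusters 12, 19 and 10 together, a choice made after the data had been seen, none of the members was at least 2-fold higher. Eln had a ratio of 0.463, Fbn1 of 0.724, Fbln1 of 0.828 and Fbln2 of 0.909, all lower in the Has2-labelled library. Mfap4 had 1.68, Fbln5 1.38, Mfap5 1.07 and Efemp2 1.08. In cluster 12, with 316 cells of the Has2-labelled library and 867 of wild type, 8 of 10 members were lower in the Has2-labelled library. There Eln stood at 10.5 CPM in the Has2-labelled library and 33.6 CPM in wild type, and Efemp1 at 256 and 542 CPM. In cluster 19, with 179 and 783 cells, Mfap4 stood at 141 CPM in the Has2-labelled library and 69.3 CPM in wild type, a ratio of 2.04 (1.88 to 2.20), but Eln at 36.4 and 63.1 CPM. In cluster 10, with 184 and 607 shallow cells, 3 members were at least 2-fold higher in the Has2-labelled library. Mfap5 had a ratio of 3.44 (3.03 to 3.91) there, from 516 UMIs in the Has2-labelled library and 448 in wild type, while Mfap4 rested on 39 and 1 UMIs and Fbln5 on 11 and 13. The shared clusters also differed among themselves for other members. Fbln2 had a ratio of 1.96 (1.64 to 2.33) in cluster 10, 1.09 (1.07 to 1.12) in cluster 19 and 0.774 in cluster 12, and Fbn1 1.19 (1.07 to 1.33), 0.774 and 0.651 in the same order of clusters. The pooled ratios thus also carry the different mix of these clusters in each library. Shares over all genes were not computed within these clusters, pooled or single, so the counts of members there have no background. Whether those clusters differ by genotype, by animal or by lesion cannot be told apart.

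**Figure D4:**
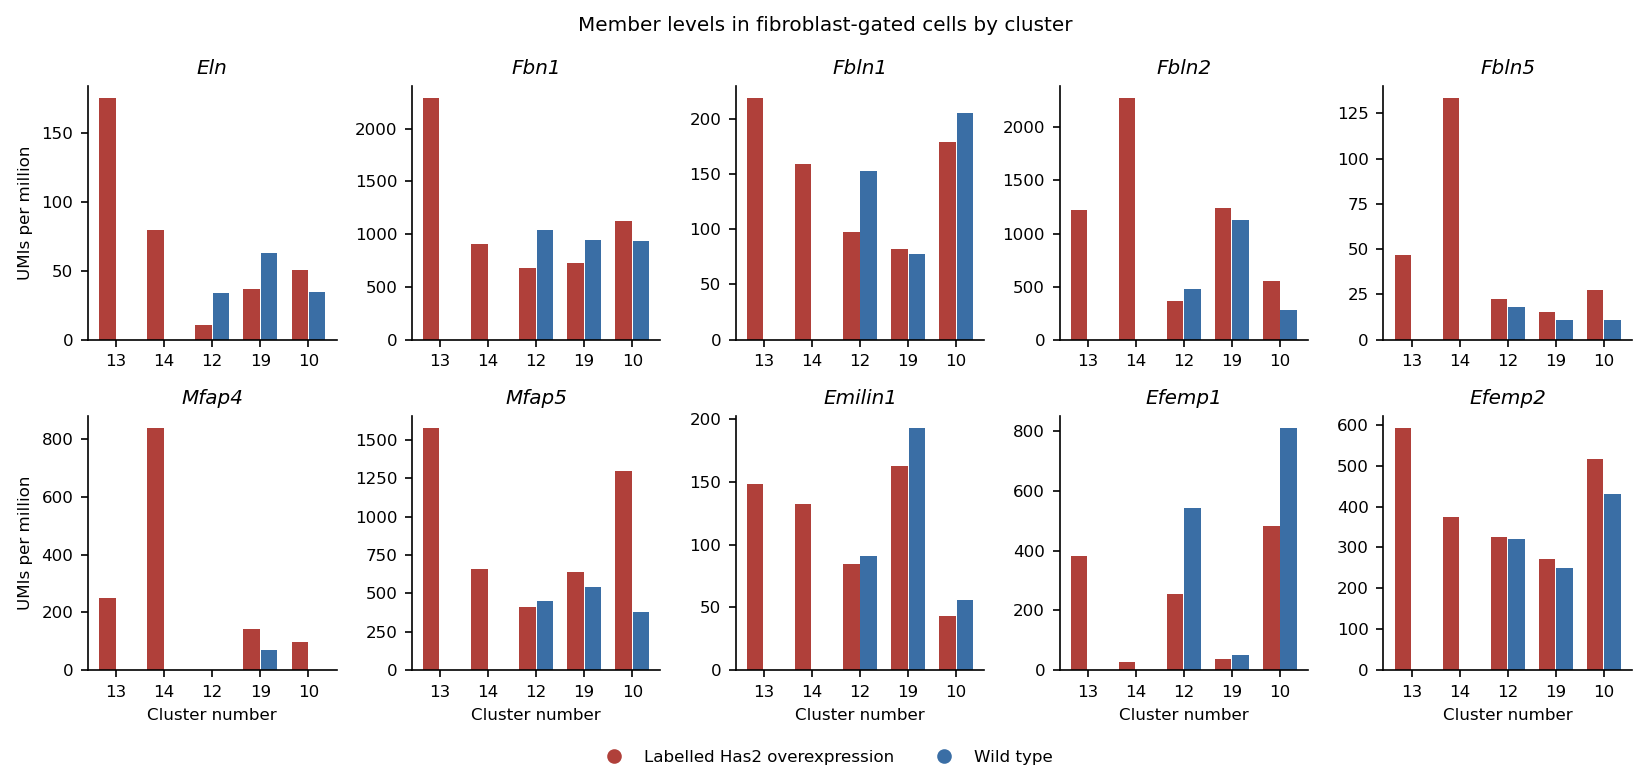
Member levels (CPM, axis from 0) in fibroblast-gated cells of clusters 13, 14, 12, 19 and 10, for the library labelled Has2 overexpression and for wild type. Bars are drawn where a library has at least 100 such cells, so wild type has none in clusters 13 and 14. Eln reaches 175 in cluster 13 of the Has2-labelled library. In clusters 12, 19 and 10 it stands at 10.5, 36.4 and 50.4 in the Has2-labelled library and 33.6, 63.1 and 34.6 in wild type.

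Fibroblast states were also cut from marker lists that hold no member, in cells with at least 5000 UMIs. A wound or myofibroblast list (Acta2, Tagln, Postn, Lrrc15, Cthrc1, Col12a1, Tnn, Acan) was at or above 10 UMIs per 10000 in 62.8% of the cells of the Has2-labelled library and 27.3% of those of wild type, with 250 and 237 cells near the cut. An adventitial-type list (Pi16, Dpp4, Cd55, Sema3c, Ly6c1, Cd248, Ackr3, Anxa3) was at or above 20 in 52.1% of the cells of the Has2-labelled library and 55.6% of those of wild type, with 231 and 192 cells near the cut. An inflammatory list (Il6, Lif, Csf3, Cxcl1, Cxcl5, Il11, Has1, Saa3) was at or above 200 in 43.6% of the cells of the Has2-labelled library and 67.6% of those of wild type, with 567 and 357 cells near the cut. These classes are ranges of a score, not cell types.

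Mfap4, Fbln2, Emilin1 and Efemp1 went with a fibroblast state in the same direction in each library. Mfap4 in wound-high cells stood 6.66 times (6.31 to 7.03) above its level in wound-low cells in the Has2-labelled library and 4.01 times (3.65 to 4.40) in wild type. Fbln2 was 2.92 times higher in wound-high cells of the Has2-labelled library and 1.82 times in wild type, and Emilin1 2.21 and 1.66 times. Efemp1 ran the other way. Its level in adventitial-high cells was 13.1 times (12.3 to 13.8) that in adventitial-low cells in the Has2-labelled library and 12.0 times (11.3 to 12.7) in wild type, while wound-high over wound-low gave 0.381 and 0.155. Over single cells its level correlated with the adventitial list at Pearson r = 0.69 in 2250 cells of the Has2-labelled library and 0.69 in 1640 cells of wild type. These correlations are descriptions, since the cells share a library and a total.

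Other members also differed between states, in the same direction in each library for some state cuts and not for others. Fbn1 was 2.24 times (2.21 to 2.27) higher in adventitial-high than in adventitial-low cells of the Has2-labelled library and 1.23 times (1.21 to 1.249) in wild type. Fbln1 kept its direction too, with adventitial-high over adventitial-low at 1.46 in the Has2-labelled library and 2.34 in wild type. Eln turned, with 1.27 (1.21 to 1.33) and 0.765 (0.706 to 0.827) in the same order. Fbln5 was 2.03 times (1.87 to 2.21) higher in wound-high than in wound-low cells of the Has2-labelled library. In wild type that ratio was 0.799 (0.680 to 0.937). Mfap5 kept its direction for wound-high over wound-low, at 1.16 in the Has2-labelled library and 1.21 in wild type. For adventitial-high over adventitial-low it turned, at 1.48 and 0.946. Efemp2 kept its direction for adventitial-high over adventitial-low, at 1.18 and 1.31, and turned for wound-high over wound-low, at 1.26 and 0.917. Whether these differ beyond the spread between animals was not testable with 1 library each. Between members the correlation over cells was mostly weak, with a median r of 0.08 over 45 pairs in the Has2-labelled library and 0.04 in wild type. Fbln2 with Mfap4 reached 0.51 in the Has2-labelled library and 0.25 in wild type.

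**Figure D5:**
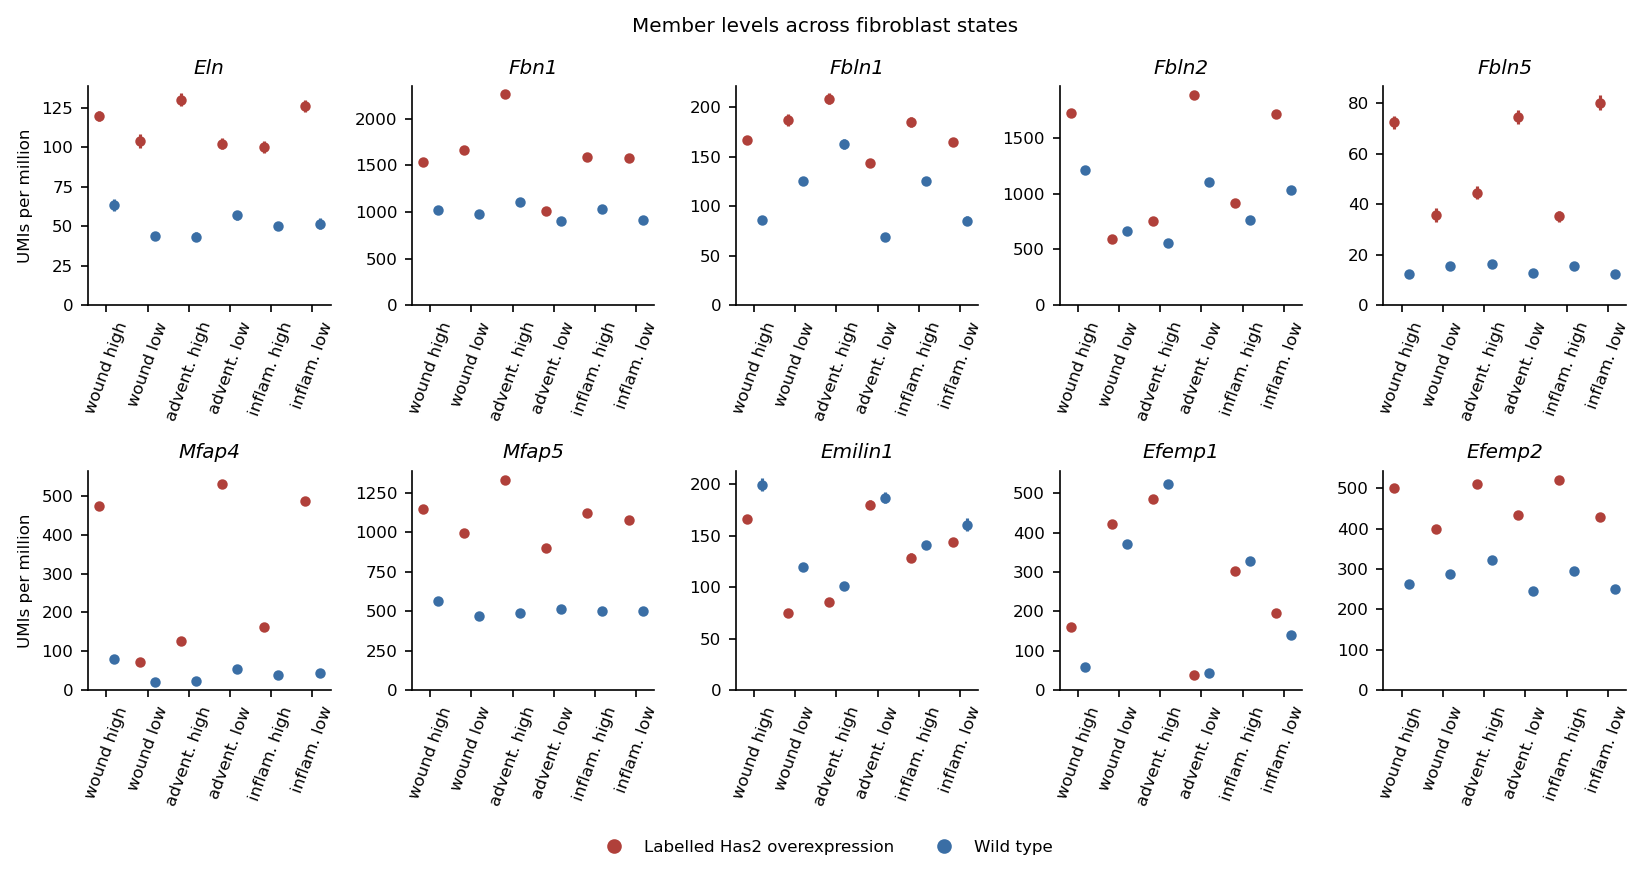
Member levels (CPM) in fibroblast-gated cells with a high or low wound, adventitial-type (advent.) or inflammatory (inflam.) list, for the library labelled Has2 overexpression and for wild type. Bars are exact Poisson 95% intervals, often smaller than the points. Mfap4, Fbln2 and Emilin1 are higher in wound-high than in wound-low cells of each library, and Efemp1 is lower.

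The gaps between the libraries varied from state to state. Crossing the wound and adventitial cuts gave 4 states that do not overlap. In all 4 of them 6 members, Eln, Fbln1, Fbln5, Mfap4, Mfap5 and Efemp2, were higher in the Has2-labelled library, and Emilin1 was lower in all 4. How many of all genes were higher or lower in all 4 was not computed, so these counts have no background. The Mfap4 ratio ranged from 1.88 to 8.14 over these states, the Fbln5 ratio from 1.87 to 6.75 and the Eln ratio from 1.65 to 2.54. With the wild-type cells weighted to the states of the Has2-labelled library, the Mfap4 ratio was 5.48, against 8.67 as observed in the same cells. Fbln5 moved little, with 4.46 after weighting and 4.25 as observed. Efemp1 turned, with 1.20 after weighting and 0.923 as observed.

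Outside fibroblasts, endothelial cells were the main site of Fbln5. Endothelial-gated cells numbered 240 in the Has2-labelled library and 250 in wild type. They held 14.2% of Fbln5 UMIs of the Has2-labelled library and 33.3% of those of wild type, against 76.8% and 48.6% for fibroblast-gated cells. Fbln5 stood at 180 CPM in endothelial-gated cells of the Has2-labelled library and 94.3 CPM in those of wild type, a ratio of 1.91 (1.70 to 2.14). Eln stood at 133 CPM in the Has2-labelled library and 29.7 CPM in wild type, a ratio of 4.48 (3.75 to 5.36). A single cell held 19.0% of the Eln UMIs of the Has2-labelled library and 14.0% of those of wild type, and without these cells the levels were 108 and 25.7 CPM. Fbln2 stood at 348 CPM in the Has2-labelled library and 236 CPM in wild type.

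Of 8 members measured in endothelial-gated cells, 3 (Eln, Mfap5 and Efemp1) were at least 2-fold higher in the Has2-labelled library, where 4.66% of 11653 genes were. None was at least 2-fold lower, as 2.31% of genes were. Mfap5 rested on 18 UMIs in the Has2-labelled library and 5 in wild type, and Efemp1 on 55 and 21. Emilin1 was lower, with 16.8 CPM in the Has2-labelled library and 29.9 CPM in wild type, a ratio of 0.562 (0.418 to 0.750). Fbn1 had a ratio of 0.906 (0.772 to 1.06), whose interval spans 1. All 8 fibroblast markers were detected in these cells, at a summed 284 CPM in the Has2-labelled library and 92.1 CPM in wild type, or 0.505% and 0.432% of their level in fibroblasts. At those proportions Eln would stand at 0.582 and 0.218 CPM and Mfap5 at 5.56 and 2.16 CPM, so the Eln level was far above and the Mfap5 level below that mark in each library. Immediate early genes summed to 5483 CPM in endothelial-gated cells of the Has2-labelled library and 3155 CPM in those of wild type, and their part in the member levels was not tested.

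Schwann-gated cells, 62 in the Has2-labelled library and 78 in wild type, carried Fbln2 and Fbln5. Fbln2 stood at 1392 CPM in the Has2-labelled library and 939 CPM in wild type, a ratio of 1.48 (1.32 to 1.67) and near its fibroblast level. Fbln5 stood at 132 CPM in the Has2-labelled library and 274 CPM in wild type, a ratio of 0.481 (0.353 to 0.649). Mfap5 stood at 56.7 CPM in the Has2-labelled library and 243 CPM in wild type, a ratio of 0.233 (0.149 to 0.353), with 35.2% of the wild-type UMIs in 1 cell. Of 7 measured members, 4 were at least 2-fold lower in the Has2-labelled library, where 6.31% of 7104 genes were, and none was at least 2-fold higher, as 7.22% of genes were. With Leiden clusters in place of gates, the Schwann ratio of Fbn1 was 1.47 and that of Emilin1 1.10, above 1 in place of below it, and that of Mfap5 was 0.692. Fibroblast markers were at 5.94% of their fibroblast level in Schwann-gated cells of the Has2-labelled library and 9.73% in those of wild type, with Dcn at 8.10 and 920 CPM. At those proportions Mfap5 would stand at 65.4 CPM in the Has2-labelled library and 48.6 CPM in wild type, and Fbln5 at 3.61 and 1.39 CPM. The Schwann Fbln5 levels lay far above that mark, as did Mfap5 in wild type, while Mfap5 in the Has2-labelled library did not. Col1a1 stood at 1218 CPM in Schwann-gated cells of the Has2-labelled library and 365 CPM in those of wild type, the opposite order to Dcn. The mark, a sum of 8 markers, thus depends on which marker is used.

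Pericyte- or smooth muscle-gated cells numbered 101 in the Has2-labelled library but 26 in wild type, too few for a ratio. Fbn1 stood there at 602 CPM in the Has2-labelled library and 458 CPM in wild type, Efemp2 at 90.1 and 66.8 CPM and Emilin1 at 56.4 and 72.8 CPM. Mfap4 and Efemp1 had 1 UMI each in those of the Has2-labelled library and 0 in wild type, which allows up to 9.10 CPM. The 188 keratinocyte-gated cells of the Has2-labelled library held Fbln1 at 54.4 CPM and Fbln2 at 56.8 CPM. In macrophage- or monocyte-gated cells, whose largest cluster was 17 in the Has2-labelled library and 3 in wild type, Emilin1 stood at 5.87 CPM in the Has2-labelled library and 4.45 CPM in wild type, above 0.413 and 1.02 CPM in neutrophil-gated cells. Fbln5 had 81 UMIs in macrophage- or monocyte-gated cells of the Has2-labelled library and 11 in those of wild type, or 2.48 and 0.270 CPM. Of 9 members measured there, 3 (Fbln5, Mfap4 and Mfap5) were at least 2-fold higher in the Has2-labelled library (5.3% of 14343 genes were). Efemp1 was the 1 at least 2-fold lower (2.41%). In each library Mfap4, Mfap5 and Efemp1 stood below their neutrophil level, the background, with Mfap4 at 0.551 CPM against 2.07 CPM in the Has2-labelled library. Fbln5 stood at 0.992 CPM in neutrophil-gated cells of the Has2-labelled library and 0.310 CPM in those of wild type.

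The other genes of the pathway came from a list of 57. Of its crosslinking and assembly genes, 30 of 32 were measured in fibroblast-gated cells, and 8 were at least 2-fold higher in the Has2-labelled library, none 2-fold lower. Mfap2, the MAGP-1 partner of Mfap5 on the microfibril, stood at 292 CPM in the Has2-labelled library and 41.2 CPM in wild type, a ratio of 7.08 (6.77 to 7.41). Fbn2, fibrillin-2, which is prominent in developing tissue, stood at 43.6 and 13.4 CPM, a ratio of 3.25 (2.99 to 3.54). Fn1, fibronectin, on which microfibrils assemble, stood at 1519 CPM in the Has2-labelled library and 267 CPM in wild type, a ratio of 5.70. Bgn, the proteoglycan biglycan, had a ratio of 2.59, Hmcn1, hemicentin-1, of 3.77, Adamtsl4 of 2.14 and Adamts17 of 3.81, the last from 112 UMIs in the Has2-labelled library and 24 in wild type. The crosslinking enzymes Lox and Loxl1 had ratios of 1.14 and 1.21. The median log2 ratio of the assembly genes was 0.61, against -0.00 for all genes.

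Of the turnover genes, 15 of 18 were measured in fibroblast-gated cells, and 3 were at least 2-fold higher in the Has2-labelled library, none 2-fold lower. Mmp12, macrophage elastase, stood at 10.6 CPM in the Has2-labelled library and 2.06 CPM in wild type, a ratio of 5.16 (4.21 to 6.37). Mmp9, a gelatinase that also cuts elastin, stood at 77.3 and 9.57 CPM, a ratio of 8.08 (7.37 to 8.87). Ctsk, the elastin-cutting protease cathepsin K, had a ratio of 2.26. Timp1, a metalloproteinase inhibitor, was lower, with 6864 CPM in the Has2-labelled library and 9490 CPM in wild type. Of 7 receptor genes, all measured, 1 was at least 2-fold higher and none 2-fold lower. The background for these counts is the 10.3% and 2.4% of genes given above. Macrophage markers summed to 155 CPM in the fibroblast class of the Has2-labelled library and 96.7 CPM in that of wild type, and their part in the Mmp9 and Mmp12 values was not tested. Mmp9 and Ctsk were also among the leading genes of macrophage- or monocyte-like cluster 18, which held 227 cells of the Has2-labelled library and 41 of wild type.

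Across 15 pairs of gated class and library with at least 50 cells, the summed level of the members ranged from 5584 CPM in fibroblasts of the Has2-labelled library to 11.6 CPM in dendritic cells of wild type. Of 12081 other genes, Spats2l followed it most closely (r = 0.987 on log2 of CPM plus 1), then P4ha2 (0.983), B4galt2 (0.981), Aebp1 (0.978) and L3hypdh (0.978). P4ha2, a subunit of the collagen prolyl hydroxylase, stood at 221 CPM in fibroblast-gated cells of the Has2-labelled library and 102 CPM in those of wild type. These points share libraries and depth, so the values are descriptions.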

How the data were processed

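Single-cell RNA was measured in 2 libraries, 1 per genotype. The authors deposited raw UMI counts per gene and barcode, made with Cell Ranger 9.0.1 on GRCm39, per the submitters' processing notes; the matrices are those filtered to called cells. The labels give the molecule as polyA RNA for the Has2-labelled sample and total RNA for wild type, with the same protocol text.

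Barcodes with fewer than 200 genes, or with mitochondrial UMIs above 15%, were removed, 150 and 57 barcodes of the Has2-labelled library and 137 and 25 of wild type by the first and second limit. Each cell was scored per class as the mean log of UMIs per 10000 over that class's markers, relative to its 50 highest cells. A gate needed 3 markers and a score of 0.3, and cells whose second class exceeded 0.7 of the first were left out as possible doublets (270 and 431). No doublet caller was run. No marker list holds a member. Just above the fibroblast limit lay 63 cells of the Has2-labelled library and 155 of wild type.

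Summed UMIs of a class in a library gave its CPM. Poisson, binomial and conditional (Clopper-Pearson) 95% intervals, and for 0 counts a limit of 3 counts, were computed with scipy 1.17.1. Ratios compare the CPM of the Has2-labelled library with that of wild type; genes with at least 20 UMIs in both libraries together were measured, and fold counts used 0.5 added UMIs. Classes with at least 50 cells in each library were compared. All 10 members are described, as are genes of the pathway list past 2-fold with at least 100 UMIs, and the 5 genes of highest correlation among those with at least 500 UMIs. Clusters came from scanpy 1.11.5 on 3000 variable genes, 30 components and 15 neighbours at resolution 1, without the members, Has2 and sex-linked genes. Interval code was checked on simulated counts. The members, lists and comparisons were chosen with earlier results of these data known, and gate limits and state cuts were set after seeing the distributions.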

Additional observations from a re-analysis of the deposited data

Results flagged for a closer look

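A member was marked when its ratio between the libraries lay on opposite sides of 1 in another cell type and in fibroblast-gated cells, with both counting intervals off 1. This difference between cell types was not tested, since each cell type has 1 library per genotype. In Schwann-gated cells Fbn1 had a ratio of 0.506 (0.277 to 0.894, from 19 UMIs in the Has2-labelled library and 40 in wild type), Fbln5 of 0.481 and Mfap5 of 0.233, while each was above 1 in fibroblast-gated cells. With Leiden clusters in place of gates the Schwann ratio of Fbn1 turned to 1.47. Over 4 alternatives the Schwann ratio of Mfap5 ranged from 0.173 to 0.692 and that of Fbln5 from 0.433 to 0.481. In endothelial-gated cells Efemp1 had a ratio of 3.57 (2.13 to 6.22), against 0.891 in fibroblast-gated cells. At the fibroblast marker level found in each class, Fbn1 in Schwann-gated cells would stand at 93.8 CPM in the Has2-labelled library and 96.2 CPM in wild type, above the 38.5 and 76.0 CPM measured. Efemp1 in endothelial-gated cells would stand at 1.23 and 1.18 CPM, below the 13.6 and 3.81 CPM measured. These marks rest on a sum of 8 markers that differ among themselves. Dcn, 1 of them, stood at 110 and 8.34 CPM in endothelial-gated cells of the Has2-labelled library and of wild type. In Schwann-gated cells it stood at 8.10 and 920 CPM in the same order.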

How the results depend on the processing

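The share of member UMIs in fibroblast-gated cells, 95.2% over both libraries, was 96.3% with cells of 2 classes kept and 96.5% with Leiden clusters in place of gates. The 4 members at least 2-fold higher in fibroblast-gated cells became 0 in the clusters shared by both libraries, where no share of all genes was computed. In those clusters Eln turned to 0.463, Fbn1 to 0.724, Fbln1 to 0.828 and Fbln2 to 0.909. The other settings gave 3 or 4. Emilin1 turned to 1.05 with the mean of per-cell CPM and 1.14 with cells thinned to 1000 UMIs, and Efemp1 to 1.20 at the same mix of fibroblast states. In Schwann-gated cells, Leiden clusters turned Fbn1 to 1.47 and Emilin1 to 1.10. Of 246 single ratios under other settings, 9 turned in this way, crossing 1 from a main ratio whose counting interval lay off 1. Of the rest, 185 stayed within the main counting interval and 52 moved outside it. The rest also hold ratios that crossed 1 from an interval spanning 1. Fbn1 in endothelial-gated cells, for example, went from 0.906 to as much as 1.20. Over all 13 alternatives Mfap4 ranged from 1.68 to 12.4, Fbln5 from 1.38 to 4.46 and Mfap5 from 1.07 to 2.52, above 1 in each. The pathway list had 12 genes at least 2-fold higher in fibroblast-gated cells of the Has2-labelled library, where 10.3% of all measured genes were. With the mean of per-cell CPM it had 17, and no share of all genes was computed for that setting. The shared clusters, the 5000-UMI minimum and the state mix were added after seeing the data. No paired analysis was possible because each genotype has 1 library, so no replicate could be left out either.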
